A study of Mus musculus with 97 samples.

Results

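Mitotic mouse embryonic stem (ES) cells were digested with micrococcal nuclease (MNase) at 3 concentrations, 0.5, 16 and 128, and the protected DNA was sequenced (MNase-seq). The titration comprises 9 of the 97 libraries of the series, 3 per concentration, chosen as the MNase-seq libraries labelled M for mitosis, and the results are the profiles deposited for them. These are 42 of the 84 MNase-seq profiles. All groups used here are E14tg2a (Tg2a) ES cells grown in serum and LIF, with no genetic alteration named in the labels. The labels add that PD0325901, a MEK inhibitor, and CHIR99021, a GSK3 inhibitor, were given where needed, without saying to which cells. The mitotic cells had been held in nocodazole, which blocks spindle assembly, at 50 ng/ml for 4 to 5 h, shaken off the flask and passed through a 10 µm filter, so "mitosis" here is a drug arrest and not an unperturbed passage. Interphase cells had no drug and were trypsinised at the same time, so the 2 states differ in drug and handling as well as in cell-cycle stage. The labels give no unit for the MNase concentrations and no mitotic index, and for MNase-seq they name no fixative.

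MNase cuts the linker DNA between nucleosomes and then trims the ends of the DNA that is left, so the midpoints of protected fragments mark the centres of nucleosomes or of other bound particles. The extent of digestion matters. Particles that appear after light digestion and are lost after heavy digestion are called fragile or MNase-sensitive, and those that persist are called resistant. In ES cells such titrations are used at promoters and enhancers, where accessible DNA, transcription factors and unstable nucleosomes occur together. In mitosis chromatin is compacted, most transcription stops and many factors leave the DNA, while some, Esrrb among them, are known to keep part of their sites.

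Profiles were deposited around 7 sets of positions. These were transcription start sites (TSS), summits of EP300 binding, the OctSox motif in Oct4/Sox2 regions, the Esrrb motif in regions named Esrrb_Book, and regions named Esrrb_Lost centred in 3 ways, on their Esrrb motif, on their OctSox motif and on their summit. EP300 is a histone acetyltransferase that sits at active enhancers. Oct4 and Sox2 are the partner factors of pluripotency, which bind a composite motif together, and Esrrb is an orphan nuclear receptor of the same network. The names Esrrb_Book and Esrrb_Lost are given as in the table, which does not define them. The 3 centrings of Esrrb_Lost share a region set and are not independent. The lists of sites, their number and their sequences were not used here.

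Each set has 1 profile per concentration and data type, running over every base position from -1000 to 1000 bp, with no replicate number. The spread between the 3 libraries of a group is therefore unknown, no test was possible, and every difference below is between single profiles. The table gives no read counts, so the depth behind the profiles is unknown as well. There are 2 data types, named midpoint and gp_mean. The midpoint profile is uneven from base to base and gp_mean is a smooth curve through it. Values below are of gp_mean unless midpoint is named. As a yardstick, each difference between concentrations is given with the standard deviation (SD) of the same log2 ratio over 10 windows of 100 bp lying 500 to 1000 bp from the centre, on the midpoint profile. That SD describes how far the ratio varies along the profile and is not an error between replicates.

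The deposited levels fell into 2 ranges. The flank, meaning the mean of the positions at least 800 bp from the centre, lay between 6.83 and 7.51 (in units of 1/10000 of the deposited signal) over the 7 sets at MNase 0.5, and between 5.54 and 6.16 at 16. At 128 it lay between 1.72 and 1.99. The flank was thus 3.59 to 4.21 times higher at 0.5 than at 128, and 1.19 to 1.23 times higher at 0.5 than at 16. Interphase MNase-seq also had its lowest flanks at 128 (2.14 to 2.60), but its highest at 16 (6.73 to 8.07 against 5.44 to 6.05 at 0.5). The scaling of the profiles is not given in the sources used here, so a change in the amount of protected DNA and a change of scale cannot be told apart. For this reason every profile was divided by its own flank, and a value of 1 means the level of the surrounding chromatin. Without this division the central level was higher at 0.5 than at 128 in all 7 sets, by 1.18 to 2.21 on the log2 scale.

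**Figure D1:**
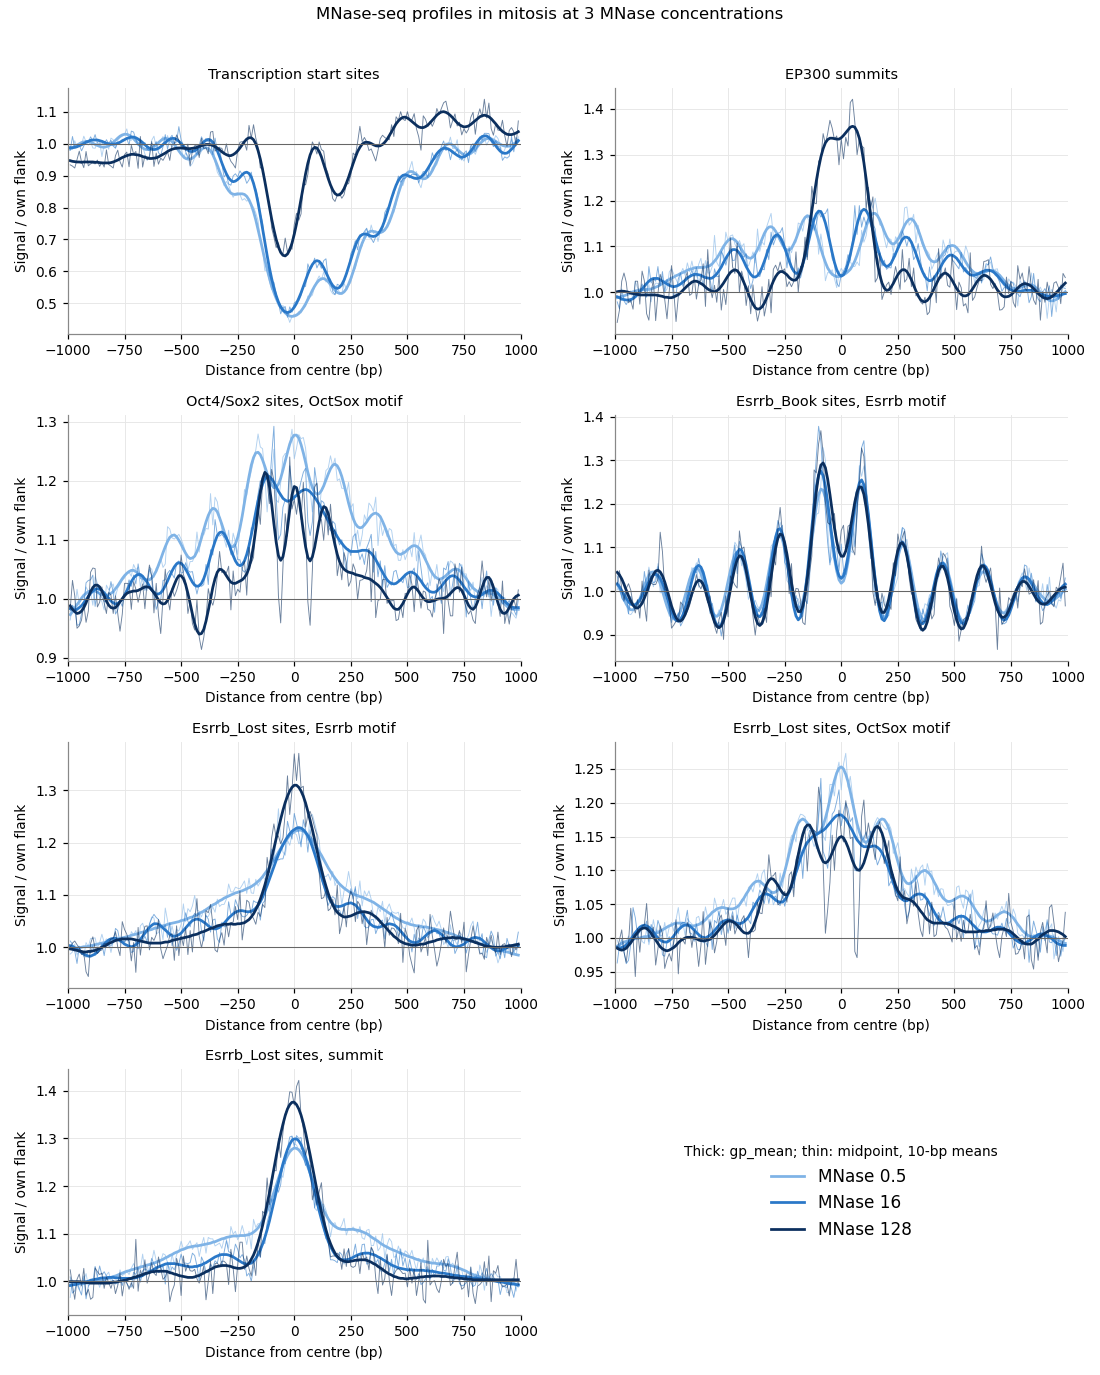
Mitotic MNase-seq profiles at MNase 0.5, 16 and 128 (light to dark blue) around the 7 sets of sites, divided by their own flank, against distance from the centre in bp; thick lines are gp_mean and thin lines are midpoint in means of 10 bp, and the vertical axes differ between panels. The start-site trough is shallower at 128 and narrower up to its first crossing of the level midway to the flank. The EP300 summit changes from a trough between 2 maxima to a central maximum. The Esrrb_Book array lies almost on itself at the 3 concentrations.

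The sets divided by what lay at their centre. In 5 of the 7 sets the signal within 50 bp of the centre, relative to the flank, was lower at light digestion (0.5) than at heavy digestion (128): at TSS, at EP300 summits, at Esrrb_Book, and at Esrrb_Lost centred on the Esrrb motif or the summit. In the other two, which are the sets centred on the OctSox motif, it was higher at light digestion. All 7 differences exceeded the SD of their windows, 2 of them exceeded 0.3 in size on the log2 scale, and the median over the sets was -0.09. In all 7 sets the value at 16 lay between those at 0.5 and 128. The step from 16 to 128 was the larger one at TSS, EP300, Esrrb_Book and the first and last centrings of Esrrb_Lost, and the step from 0.5 to 16 was the larger one at the sets centred on the OctSox motif.

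**Figure D2:**
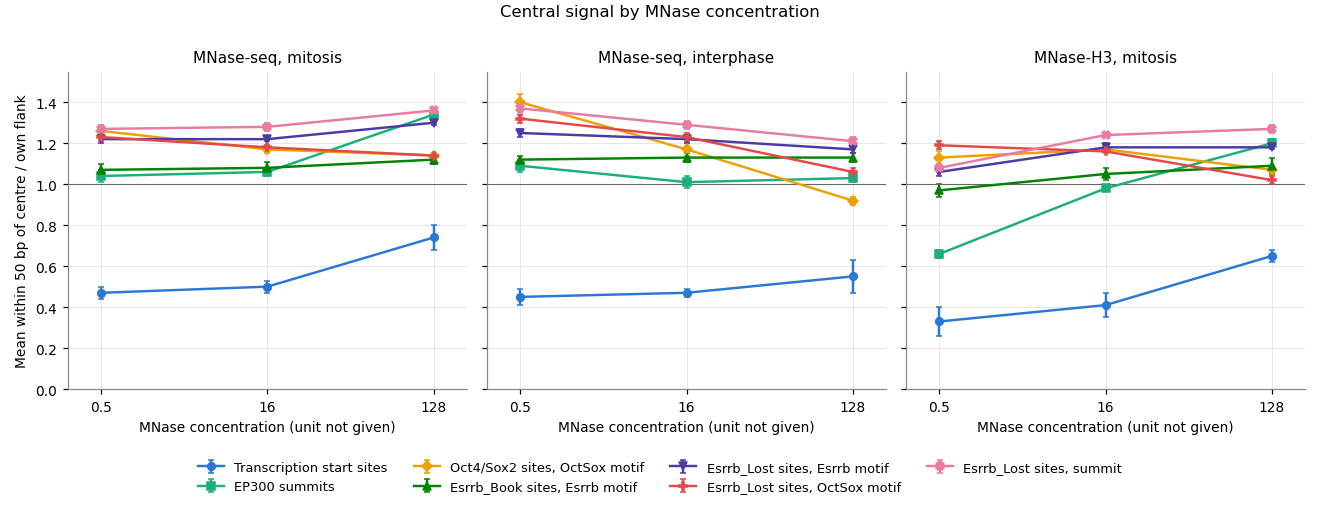
Mean signal within 50 bp of the centre over the profile's own flank (vertical axis, from 0) against MNase concentration (no unit given) for the 7 sets, in mitotic MNase-seq, interphase MNase-seq and mitotic MNase-H3; bars are the SD of the same profile's midpoint means over 10 windows away from the centre, not replicate error. In mitosis the EP300 line goes from 1.04 to 1.34 and the start-site line from 0.47 to 0.74, while in interphase the Oct4/Sox2 line goes from 1.40 to 0.92.

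Start sites were the most depleted of the 7 sets at every concentration. Active promoters are known for a nucleosome-depleted region just upstream of the start and an ordered array of nucleosomes downstream, of which the +1 nucleosome is the first. In mitosis the central signal was 0.47 times the flank at MNase 0.5, 0.50 at 16 and 0.74 at 128. The profiles at 0.5 and 16 were nearly the same and the one at 128 stood apart, with a shallower trough. The difference between 0.5 and 128 was -0.66 on the log2 scale (SD of windows 0.12), of which -0.10 came between 0.5 and 16 and -0.56 between 16 and 128.

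The trough also changed in shape and place. Its lowest point was 0.46 at -10 bp with light digestion, 0.47 at -30 bp at 16 and 0.65 at -40 bp with heavy digestion. Its width, midway between the flank and the lowest point, was 560 bp, 530 bp and 150 bp. The depletion midway to the flank thus reached 400 and 390 bp downstream of the start at 0.5 and 16. At 128 its downstream edge lay at 30 bp. These edges are the first crossings of the midway level. At 128 the crossing was on the rise to a maximum of 0.99 at 90 bp, and the signal fell back to 0.84 at 190 bp.

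The shift of the downstream edge went with more signal where the +1 nucleosome is usually found, called the +1 maximum below. Whether this signal came from a nucleosome was not tested. A local maximum downstream of the start lay at 130 bp with a height of 0.58 at MNase 0.5, at 100 bp with 0.63 at 16, and at 90 bp with 0.99 at 128. It was below the level of the flank at 0.5 and 16 and level with it at 128. In the stretch from 50 to 100 bp downstream the signal was 0.53, 0.61 and 0.97. The largest difference anywhere in the start-site profiles was here: 0.5 over 128 came to -0.88 on the log2 scale at 60 bp. From 200 to 600 bp, taken on both sides, the mean was 0.85, 0.87 and 1.00.

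Upstream of the start the difference was smaller. The nearest upstream maximum was at -200 bp (1.02) at 128 and at -210 bp (0.91) at 16. At 0.5 there was no local maximum at that place, and the nearest was at -390 bp (0.99). At 128 the flanks themselves were unequal, with 0.94 upstream and 1.06 downstream of the start against 1.00 on both sides at 0.5 and 16. Heavy digestion thus left relatively more signal on the transcribed side out to the end of the window. Interphase was much the same at 128, with 0.95 upstream and 1.05 downstream.

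**Figure D3:**
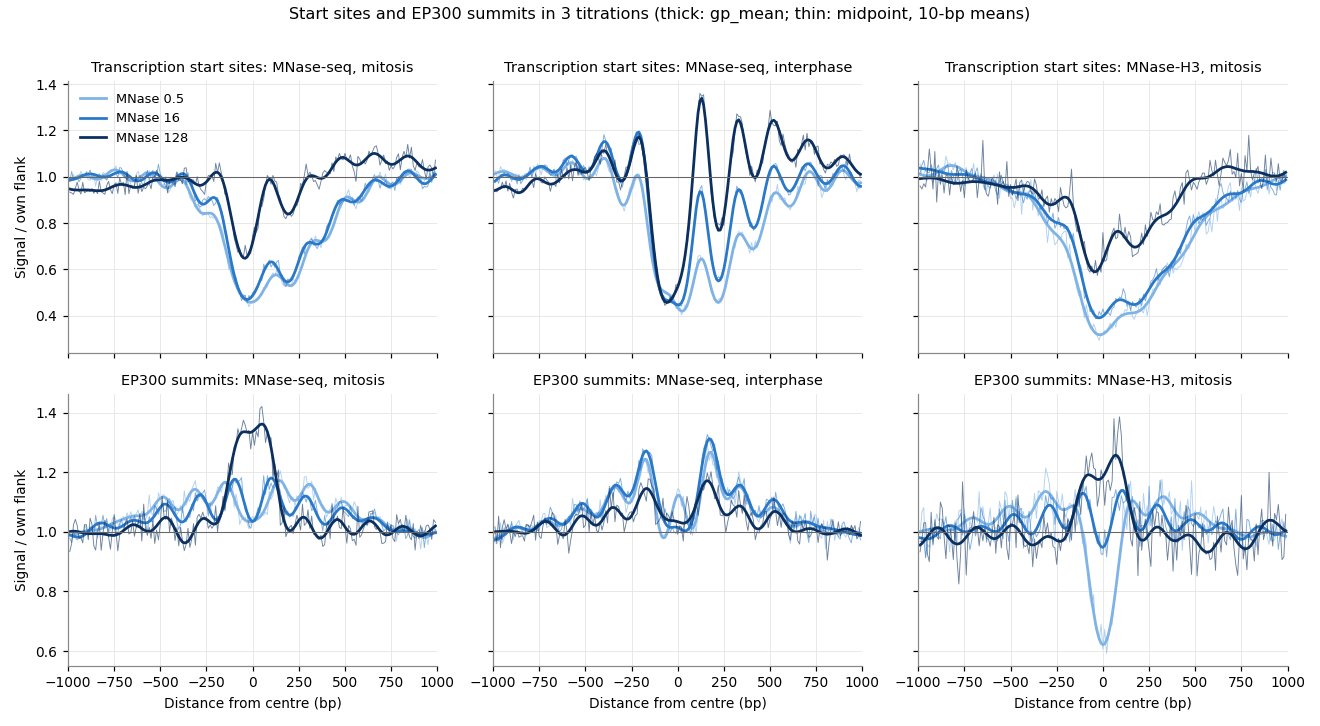
Profiles around transcription start sites (top) and EP300 summits (bottom) over their own flank, at MNase 0.5, 16 and 128, in mitotic MNase-seq, interphase MNase-seq and mitotic MNase-H3, against distance from the centre in bp; thick lines are gp_mean and thin lines are midpoint in means of 10 bp. At EP300 summits the central level at 128 is 1.34 in mitotic MNase-seq, 1.03 in interphase and 1.20 in MNase-H3, and the start-site maximum near 130 bp reaches 1.34 in interphase at 128.

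In interphase the central levels at start sites were 0.45, 0.47 and 0.55 at 0.5, 16 and 128, a difference between 0.5 and 128 of -0.29 (SD of windows 0.16) against -0.66 in mitosis. The lowest points were 0.42, 0.45 and 0.46, so the bottom of the trough was nearly the same at all 3 concentrations, while in mitosis it was 0.46, 0.47 and 0.65. The interphase profiles parted further downstream. The +1 maximum was 0.94 at 120 bp for 16 and 1.34 at 130 bp for 128, and the largest difference, -1.05, was at 130 bp, at the +1 maximum itself. In mitosis the largest difference was at 60 bp in gp_mean, on the side of the +1 maximum that faces the start. On midpoint it was -0.93 at 80 bp, nearer the maximum that gp_mean had at 90 bp at 128. In interphase it was at 130 bp in both data types. The contrast of central differences between the states was -0.37 and could not be tested.

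Histone H3 was measured in a parallel titration, MNase-H3, in which formaldehyde-fixed chromatin (FA in the labels) was digested and then immunoprecipitated for H3, with 2 mitotic libraries per concentration. It reports only fragments that carry this core histone, and fixation sets it apart from MNase-seq as labelled. At mitotic start sites its central level was 0.33, 0.41 and 0.65, lower than MNase-seq at every concentration and in the same order. Its lowest points, 0.32, 0.39 and 0.59, likewise became shallower with concentration. From 50 to 100 bp downstream of the start, H3 had 0.38, 0.46 and 0.76, lower than MNase-seq at every concentration. Its local maximum there was 0.47 at 90 bp at 16 and 0.77 at 80 bp at 128, with none at 0.5. The width of the H3 trough was 610, 570 and 410 bp, against 150 bp in MNase-seq at 128. These widths end at the first midway crossing. The H3 maximum at 80 bp (0.77) stayed below that level, whereas MNase-seq crossed it at 30 bp. The gap in width at 128 thus rests on whether this maximum clears the midway level.

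EP300 summits had the clearest change of form. At light digestion the summit lay in a shallow trough, 1.04 times the flank, between a pair of maxima at -150 and 140 bp, each 1.17. At 16 the trough was as shallow, at 1.06, but the maxima had moved inward to -100 and 100 bp, each 1.18. At 128 there was no trough: the profile formed a plateau over the summit with a central level of 1.34 and a maximum of 1.36 at 50 bp. The stretch 50 to 100 bp from the summit had 1.31 on the negative side and 1.34 on the positive side.

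Around the plateau the order of the concentrations was inverted. From 200 to 600 bp the mean was 1.10 at 0.5, 1.07 at 16 and 1.01 at 128. The lightly digested profile thus held a wide zone of raised signal, in which maxima were found at -480, -310, 310 and 490 bp with heights from 1.10 to 1.16. At 16 the corresponding maxima were at -470, -280, 290 and 490 bp with heights from 1.08 to 1.13. At 128 they were at -470, -260, 270 and 460 bp and were no higher than 1.05, and the lowest point of the profile, 0.96, was at -370 bp between them.

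The maxima found 200 to 350 bp from the EP300 summit lay closer to it at each higher concentration, at -310, -280 and -260 bp on the negative side and at 310, 290 and 270 bp on the positive side. Those further out were at -480, -470 and -470 bp, and at 490, 490 and 460 bp. At 128 the maxima at -260 and 270 bp are the nearest to the central plateau, whereas at 0.5 and 16 a closer pair stood inside them. Among these outer maxima no shift between neighbouring concentrations was above 30 bp, and positions are given to 10 bp.

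The log2 ratio of 0.5 over 128 summarises this pattern. At the EP300 centre it was -0.37 (SD of windows 0.04), and it was negative from -140 to 130 bp and positive just beyond on both sides. Its lowest value, -0.37, was at 30 bp and its highest, 0.21, at -340 bp. Between 0.5 and 16 the central difference was only -0.03 (SD of windows 0.02), so nearly all of it lay between 16 and 128, at -0.34. Over the positions of the window the profiles at 0.5 and 128 had a Pearson correlation of 0.18, the lowest of the 7 sets, against 0.79 between 0.5 and 16. The positions are neighbours within single profiles and are not independent.

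In interphase the centre of the same summits stayed below the maxima beside it at all concentrations. At 0.5 a small local maximum of 1.12 stood at 0 bp, and the lowest point within 100 bp was 0.98 at -80 bp. At 16 and 128 there was no maximum at the summit. The central level was 1.09, 1.01 and 1.03, and the maxima stayed 160 to 180 bp from the summit, with heights of 1.25 and 1.27 at 0.5, 1.27 and 1.31 at 16 and 1.15 and 1.17 at 128. In mitosis the flanking maxima were closer to the summit at 0.5 and 16 and lower. The central difference of 0.5 over 128 was 0.07 (SD of windows 0.02) in interphase and -0.37 in mitosis, on opposite sides of 0. In interphase the positive sign held only from -40 to 60 bp, and the ratio was -0.10 at -80 bp.

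The H3 titration in mitosis had the same order at EP300 summits with a wider span. Its central level was 0.66 at 0.5, 0.98 at 16 and 1.20 at 128. At light digestion H3 was thus below the flank at the summit, with a lowest point of 0.62 at 0 bp, while MNase-seq of mitotic cells was slightly above it. At heavy digestion both were above the flank, and the H3 profile also had its maximum off the summit, 1.26 at 70 bp.

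**Figure D4:**
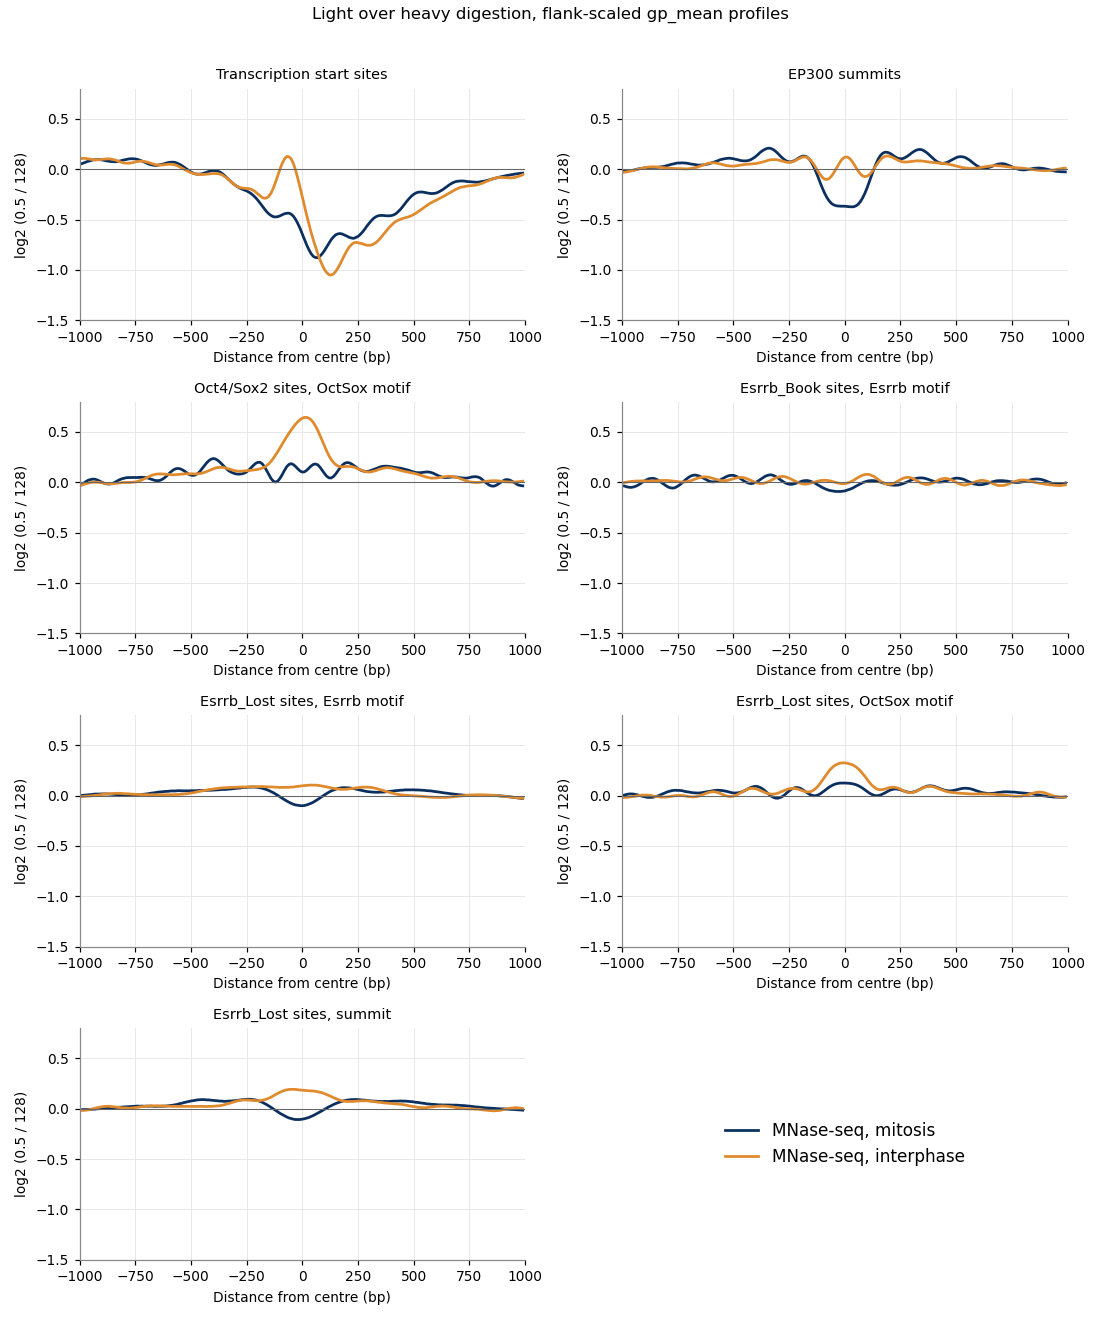
Log2 ratio of the flank-scaled gp_mean profile at MNase 0.5 over that at 128, against distance from the centre in bp, for the 7 sets in mitosis (dark blue) and interphase (orange); values below 0 mean relatively more signal at 128. At EP300 summits the mitotic line drops to -0.37 near the centre and the interphase line does not, and at Oct4/Sox2 sites the interphase line reaches 0.65 at 20 bp while the mitotic line stays at or below 0.24.

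Oct4/Sox2 sites behaved the other way round. At their OctSox motif the central signal was 1.26 times the flank at 0.5, 1.17 at 16 and 1.14 at 128, highest with light digestion. The difference of 0.5 over 128 was 0.14 on the log2 scale (SD of windows 0.04), of which 0.10 lay between 0.5 and 16 and 0.04 between 16 and 128. With the mean of the whole window as the reference in place of the flank it was 0.05, close to the SD of its windows. The difference did not stop at the motif: the log2 ratio was positive from -840 to 820 bp without a change of sign around the centre, and the highest value, 0.24, was at -400 bp. From 200 to 600 bp the mean was 1.11, 1.06 and 1.01.

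The lightly digested profile at these sites was a regular array centred on the motif. Its 9 maxima were spaced by a median of 180 bp (170 to 190 bp), with the highest, 1.28, at 0 bp and its neighbours at -160 bp (1.25) and 180 bp (1.23). In gp_mean at 16 there was no maximum at the motif, and the nearest were at -120 bp (1.21) and 50 bp (1.18). In gp_mean at 128 a central maximum of 1.19 at 0 bp stood between maxima at -130 bp (1.22) and 130 bp (1.16). Their spacing was 130 bp rather than 180. The same heavily digested profile had its lowest point, 0.94, at -420 bp. The positions beside the motif at 16 and 128 depended on the data type. On midpoint, after a running mean over 21 bp, the highest flanking maxima at 128 were at -90 bp (1.22) and 90 bp (1.19). At 16 they were at -90 bp (1.27) and 90 bp (1.21), and at 0.5 at -150 bp (1.27) and 170 bp (1.25).

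The midpoint profile held a detail there that gp_mean smooths over. Between 60 and 80 bp from the OctSox motif at Oct4/Sox2 sites, the midpoint mean at 128 was 1.00 on the negative side and 0.96 on the positive side, against 1.07 on both sides in gp_mean. The SD of midpoint means in windows of 21 bp away from the centre was 0.02. The stretch was not among the planned measures. It holds the lowest midpoint value within 100 bp of the motif at 128, at 70 bp, so the SD of other windows is no test of it. At 16 the midpoint means were 1.11 and 1.10 (gp_mean 1.18 on both sides), and at 0.5 they were 1.17 on both sides (gp_mean 1.20). The notch on either side of the motif was therefore deepest with heavy digestion and shallow with light digestion. On the midpoint profile the highest log2 ratio of 0.5 over 128 was 0.30, at 70 bp, the same low point and not separate support for the notch. The same notch was found at the OctSox motif of Esrrb_Lost regions, where the midpoint means at 128 were 1.02 and 0.97 against 1.11 and 1.10 in gp_mean. Midpoint was also below gp_mean at this distance from the Esrrb motif of Esrrb_Book sites: 1.21 and 1.17 against 1.28 and 1.23 at 128, and 1.17 and 1.17 against 1.24 and 1.23 at 16. At 0.5 it was not below on the negative side, with 1.26 and 1.20 against 1.21 on both sides. The gap was not particular to mitotic MNase-seq. Interphase Esrrb_Book at 128 had 1.10 and 1.03 against 1.18 and 1.14. Mitotic H3 at the motif of Oct4/Sox2 sites had 0.92 and 0.96 against 1.07 on both sides at 128.

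In interphase the OctSox motif had a wider range over the titration than in mitosis. The central level was 1.40 at 0.5, 1.17 at 16 and 0.92 at 128, so that heavy digestion left the motif below the flank, between maxima of 1.24 at -190 bp and 1.22 at 190 bp. In mitosis it stayed above the flank at every concentration. The difference of 0.5 over 128 was 0.61 (SD of windows 0.03) in interphase against 0.14 in mitosis, a contrast of -0.47 and the largest among the 7 sets, not tested. Mitotic H3 at this motif had 1.13, 1.17 and 1.07. Its difference of 0.5 over 128 was 0.07 on gp_mean and 0.03 on midpoint, with an SD of windows of 0.07.

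At Esrrb_Book sites the profiles were arrays of evenly spaced maxima that lay in nearly the same places at all 3 concentrations. Each of the 3 profiles had 10 maxima with a median spacing of 180 bp and single spacings of 170 to 190 bp. The maxima next to the Esrrb motif were at -90 and 90 bp at 0.5 and at 16, and at -80 and 80 bp at 128. Their heights were 1.24 and 1.24 at 0.5, 1.28 and 1.26 at 16, and 1.30 and 1.24 at 128. On midpoint, after a running mean over 21 bp, they were at -100 and 90 bp at both 16 and 128. At 0.5 the highest flanking midpoint values were at -80 bp, the edge of the search, and 100 bp. The slightly closer maxima at 128 were thus found in gp_mean only. The array reached far from the motif at all concentrations, and the outermost maxima lay at -830 and 820 bp at 0.5, at -820 and 810 bp at 16 and at -810 and 810 bp at 128.

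The central level at Esrrb_Book was 1.07 at 0.5, 1.08 at 16 and 1.12 at 128, with 1.02, 1.03 and 1.08 at the motif position itself. The difference of 0.5 over 128 was -0.08 (SD of windows 0.03), and that of 0.5 over 16, -0.01, was within the SD of its windows (0.01). The correlation over positions was 0.95 between 0.5 and 128, the highest of the 7 sets in gp_mean, and 0.99 between 0.5 and 16. On midpoint it was 0.90 between 0.5 and 128, the same as at Esrrb_Lost summits, and 0.94 between 0.5 and 16. The interphase gp_mean profiles at 0.5 and 128 had a similar correlation, 0.96. The mean rise from each trough to the higher of its neighbouring maxima was 0.18, 0.21 and 0.20 times the flank. In interphase it was 0.12, 0.12 and 0.08, lower at every concentration, and in mitotic H3 it was 0.18, 0.19 and 0.19. The interphase central levels, 1.12, 1.13 and 1.13, gave a difference of 0.00 (SD of windows 0.02).

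**Figure D5:**
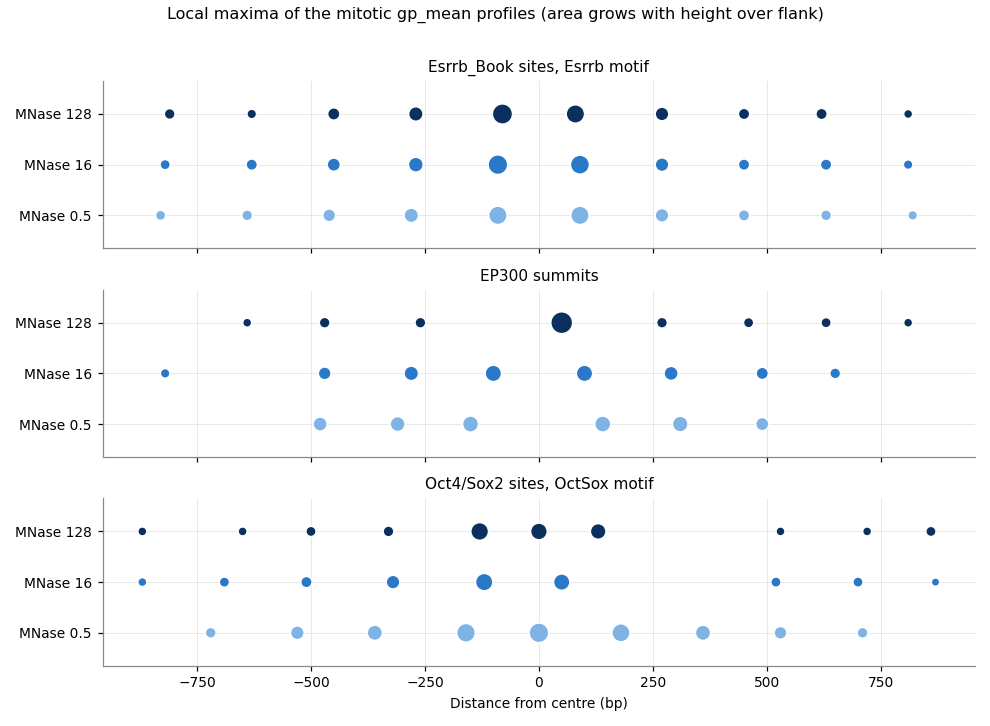
Positions of the local maxima of the mitotic gp_mean profiles, in bp from the centre, at MNase 0.5, 16 and 128 for Esrrb_Book sites, EP300 summits and Oct4/Sox2 sites; the area of a point grows with its height over the flank. The Esrrb_Book maxima stand above each other at the 3 concentrations, whereas the innermost EP300 maxima go from -150 and 140 bp at 0.5 to a single one at 50 bp at 128.

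Esrrb_Lost regions were described from 3 centres, and the direction of the titration depended on the centre. On the Esrrb motif, the central level was 1.22 at 0.5, 1.22 at 16 and 1.30 at 128. In gp_mean there were no maxima on either side like those of Esrrb_Book: within 300 bp of the motif each profile had a single broad maximum, 1.22 at 20 bp, 1.23 at 20 bp and 1.31 at 0 bp. Its width midway between flank and maximum was 430 bp at 0.5, 260 bp at 16 and 230 bp at 128, so the hump narrowed as digestion increased. The single maximum at 0.5 was not found on midpoint, which after a running mean over 21 bp was higher beside the motif than at it by 0.04 times the flank, against -0.03 in gp_mean. The difference of 0.5 over 128 was -0.09 at the centre (SD of windows 0.02), negative from -110 to 100 bp, and it was 0.00 between 0.5 and 16.

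Centred on their summits, the same regions had central levels of 1.27, 1.28 and 1.36, with the maximum at 0 bp at every concentration. The difference of 0.5 over 128 was -0.10 (SD of windows 0.02). The shoulders had the opposite order: from 200 to 600 bp the mean was 1.08 at 0.5, 1.04 at 16 and 1.02 at 128. More signal at the centre and less beside it at 128 was thus shared with EP300 summits, on a smaller scale. The EP300 difference at the centre was -0.37.

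Centred on the OctSox motif, the regions had central levels of 1.23, 1.18 and 1.14, highest with light digestion, as at Oct4/Sox2 sites. The difference of 0.5 over 128 was 0.12 (SD of windows 0.02), or 0.08 with the whole window as the reference. At 0.5 the maximum at 0 bp (1.25) stood above those at -170 and 180 bp (both 1.18). At 128 the central maximum (1.15) was lower than those at -150 and 160 bp (both 1.17). At 16 gp_mean had a single broad maximum near the motif, 1.18 at -10 bp. On midpoint, after a running mean over 21 bp, it was not single. Local maxima stood beside the motif at -90 bp (1.21) and 130 bp (1.16), and the lowest point within 100 bp was 1.08 at 70 bp. At 128 the midpoint maxima beside the motif were at -100 bp (1.21) and 100 bp (1.20), closer than in gp_mean.

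The interphase titration at Esrrb_Lost went one way from all 3 centres. On the Esrrb motif the central levels were 1.25, 1.22 and 1.17, on the summit 1.37, 1.29 and 1.21, and on the OctSox motif 1.32, 1.23 and 1.06. The differences of 0.5 over 128 were 0.10, 0.18 and 0.31 in interphase against -0.09, -0.10 and 0.12 in mitosis, in that order. In mitotic H3 the central levels were 1.06, 1.18 and 1.18 on the Esrrb motif, 1.08, 1.24 and 1.27 on the summit, and 1.19, 1.16 and 1.02 on the OctSox motif. The H3 differences of -0.15, -0.23 and 0.22 had the signs of mitotic MNase-seq at each of the 3 centres. On the OctSox motif the H3 value depended on the data type: on midpoint it was 0.10 in place of 0.22, with a central level at 128 of 1.13 in place of 1.02, and the correlation between the data types over positions was 0.45 there.

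Over the 7 sets, the difference of 0.5 over 128 at the centre was lower in mitosis than in interphase every time, by 0.08 at Esrrb_Book to 0.47 at Oct4/Sox2. In interphase the value at 0.5 was the higher one in 5 of 7 sets, and in mitosis in 2 of 7. Mitotic H3 had the same split as mitotic MNase-seq, 2 higher and 5 lower, with a median of -0.16. The concentration 16 lay between the others in 5 of 7 sets in interphase and in mitotic H3 and in 7 of 7 in mitotic MNase-seq. These counts describe 5 region sets that share libraries, and no test stands behind them.

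In mitotic MNase-seq the central difference had the same sign in both data types at all 7 sets. The midpoint differences of 0.5 over 128 were -0.66 at TSS, -0.36 at EP300 summits, 0.12 at Oct4/Sox2 sites and -0.10 at Esrrb_Book. At Esrrb_Lost they were -0.11, 0.10 and -0.10 for the Esrrb motif, the OctSox motif and the summit. The base-to-base scatter of midpoint around gp_mean was widest at 128, with an SD of 0.08 to 0.10 times the flank against 0.04 to 0.06 at 0.5 and 0.05 to 0.06 at 16. Positions and heights at 128 are therefore the least precisely set of the 3.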

How the data were processed

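The libraries used are 9 mitotic and, for comparison, 9 interphase MNase-seq libraries and 6 mitotic MNase-H3 libraries, grouped by their titles. The titles of the interphase libraries carry the letter A and the interphase profiles the letter I, and these were matched here. The deposited table holds a signal made by the authors, as profiles around sites, and is treated as a score of unstated scale, with 1 profile per state, concentration, site set and data type. Its scale, the fragment sizes counted, how libraries were combined and how gp_mean was computed are not given in the sources used here. The submitters' processing notes name Bowtie2, MACS2, RSEM, STAR and the build mm9 but neither versions nor which tool made the profiles.

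With Python 3.11.15, numpy 2.4.6 and scipy 1.17.1, each profile was divided by its mean at 800 bp or more from the centre. The centre is the mean within 50 bp. Maxima needed a prominence of 0.01 times the flank, and flanking maxima were sought 80 to 300 bp from the centre. Widths run to the first crossing, on each side, of the level midway between the flank and the extreme. Positions are given to 10 bp. The measures were tested on simulated profiles.

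Every site set with mitotic MNase-seq profiles is described, and none was selected by its values. The comparisons and measures were chosen with earlier results of these data known. The RNA tables, the ATAC-seq profiles and the interphase MNase-H3 profiles were not used here. Alternatives covered the central window, the reference, the data type, the concentration compared, smoothing and the search window. Apart from the data type and the concentration compared, they were run on mitotic MNase-seq only.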

Additional observations from a re-analysis of the deposited data

Results flagged for a closer look

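In 3 sets the central difference of MNase 0.5 over 128 had opposite signs in mitosis and interphase, in each state by more than the SD of its windows. At EP300 summits it was -0.37 in mitosis and 0.07 in interphase. The interphase sign there held only from -40 to 60 bp, and the ratio fell to -0.10 at -80 bp. Other central windows were tried in mitosis only. At Esrrb_Lost regions it was -0.09 and 0.10 on the Esrrb motif, and -0.10 and 0.18 on the summit. These last sets share their regions. The difference between the states was not tested, because each state has 1 profile per concentration, and the drug and handling that go with mitosis cannot be told apart from it.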

How the results depend on the processing

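No paired analysis was possible because the profiles carry no replicate numbers, and leaving out a replicate was not possible for the same reason. With no replicates and unknown depth, a move was set against the SD of the windows. The central difference of 0.5 over 128 kept its direction and size in all 7 sets within 25 bp, at the centre position alone, with the outermost 100 bp on each side as flank and on midpoint. Within 100 bp it moved at Esrrb_Lost on the Esrrb motif (-0.07). With no flank subtracted, the difference in deposited level turned positive at TSS (1.18), EP300 (1.56), Esrrb_Book (1.81) and Esrrb_Lost on the Esrrb motif (1.90) and summit (1.90), and was 2.21 at Oct4/Sox2 and 2.10 at Esrrb_Lost on the OctSox motif; this setting keeps the gap in overall level. With 16 in place of 128 it was -0.10 at TSS, -0.03 at EP300, -0.01 at Esrrb_Book, and 0.00, 0.07 and -0.02 at Esrrb_Lost on the Esrrb motif, OctSox motif and summit. With the mean of the whole window as the reference, chosen after seeing the data, it was -0.46 at TSS, 0.05 at Oct4/Sox2, and -0.11, 0.08 and -0.13 at Esrrb_Lost in the same order.

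The height of the flanking maxima over the centre was the same after a running mean over 21 bp in 21 of 21 profiles. Searched from 60 to 350 bp, it was 0.37 and 0.35 at TSS (0.5 and 16), 0.00 in place of -0.02 at EP300 (128), -0.02 and -0.04 at Esrrb_Lost on the Esrrb motif (16 and 128), and -0.03, -0.05 and -0.06 on the summit (0.5, 16 and 128). On midpoint with a running mean over 21 bp, also chosen after seeing the data, it was 0.05 at Oct4/Sox2 (16), and 0.24, 0.27 and 0.21 at Esrrb_Book. At Esrrb_Lost on the Esrrb motif it was 0.04 in place of -0.03 at 0.5, where the sign reversed, then -0.03 and -0.06. On the OctSox motif it was 0.00 and 0.05 (16 and 128), and on the summit -0.13 (128). The cause of these moves was not tested.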
